A study of Triticum aestivum with 36 samples.

Results

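The 95 probe sets described here had a large difference in a constant direction between the bread wheat varieties C306 and Sonalika at all 3 stages of seed development. The members were chosen by value. For each probe set the mean of the 3 C306 arrays minus the mean of the 3 Sonalika arrays, in log2, had to be at least 3 at 7, 14 and 28 DAA (days after anthesis), or at most -3 at each of them, which is a difference of 8-fold or more in the same direction throughout. Of the 61290 probe sets on the array, 111 were controls and 7 were left out by the rule, 1 of which passed the threshold. The 95 members comprised 46 probe sets higher in C306 and 49 lower in C306. Since these values chose the members, they are given as a description and without a test, and the tests below compare Lok1 with WH291, whose arrays had no part in the choice. The arrays of C306 and Sonalika still enter these tests through the filter on low values and the shared estimate of the spread between replicates.

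RNA was taken from developing seeds of field-grown plants of C306, Sonalika, Lok1 and WH291 at 7, 14 and 28 DAA, and each variety and stage had 3 biological replicates, so that 36 arrays were compared in 12 groups. No plants were treated or modified. C306 and Lok1 make good chapatti, the flat bread baked without leavening from whole wheat flour, whereas Sonalika and WH291 make it poorly. Each array was an Affymetrix Wheat Genome Array hybridized with RNA of whole seeds, which pool endosperm, embryo and the tissues around them. In such bulk RNA, fewer cells of a type and less RNA per cell cannot be told apart. The values are the authors' log2 signals, given relative to the median of the 36 arrays for the same probe set. Groups can therefore be set against each other within a probe set, whereas the levels of 2 probe sets cannot.

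Bread wheat is a hexaploid, and most of its genes are present as similar copies from its subgenomes. A probe set on this array reads the 3' end of a transcript through a set of short probes, so that its signal depends on the amount of the RNA and on how well the RNA's sequence matches the probes. Varieties can differ in such a signal at every stage where a gene copy is present, expressed or matched in some varieties and not in others. In seeds, the stages sampled here span the end of cell division, grain filling and the onset of maturation, when many genes of the endosperm and embryo change their expression.

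The named members covered several classes of protein. Among the members higher in C306 were a receptor-like kinase, an enzyme of phytosiderophore synthesis, a secretory peroxidase and a GATA transcription factor. Among those lower in C306 were an enzyme of formaldehyde detoxification, a small heat shock protein, a chromatin remodeller, a factor of iron-sulphur cluster assembly, a protease of the FtsH family, a heat stress transcription factor and an enzyme of fatty acid oxidation. Of the 95 members, 10 had a putative function in the annotation of the study, 18 were hypothetical proteins and 3 had no significant similarity. The array's annotation gave a gene name for 1 further member and a bare symbol for 1 more, and 62 had no annotation in the sources used here.

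Some arrays stood apart from the others in the members. A call was made for Lok1 and WH291 at each member and stage: a variety was on the C306 side when each of its 3 arrays lay nearer to the C306 mean than to the Sonalika mean of that stage, on the Sonalika side when each lay nearer to the Sonalika mean, and split otherwise. The calls of Lok1 at 14 and 28 DAA were on the same side in 98.8% of the members called at both stages (85 of 86), and those of WH291 at 7 and 28 DAA in 98.8% (80 of 81). The arrays labelled WH291 14 DAA shared the side of the arrays labelled Lok1 14 DAA in 97.6% of the members (80 of 82) and that of Lok1 28 DAA in 97.6% (81 of 83), but that of WH291 7 DAA in 62.2% (51 of 82) and that of WH291 28 DAA in 63.8% (51 of 80). The arrays labelled Lok1 7 DAA shared the side of Lok1 14 DAA in 54.0% (47 of 87) and that of Lok1 28 DAA in 53.4% (47 of 88), and that of WH291 7 DAA in 64.7% (55 of 85). The shares with Lok1 14 and 28 DAA differed by direction. They were 31.8% and 30.2% in members higher in C306, and 76.7% and 75.6% in those lower in C306. The labels were kept, and both groups are called by their labels throughout. Comparisons of Lok1 with WH291 at 7 and 14 DAA and changes that involve these groups rest on them, whereas the comparison at 28 DAA, the change of Lok1 between 14 and 28 DAA and that of WH291 between 7 and 28 DAA do not.

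**Figure D1:**
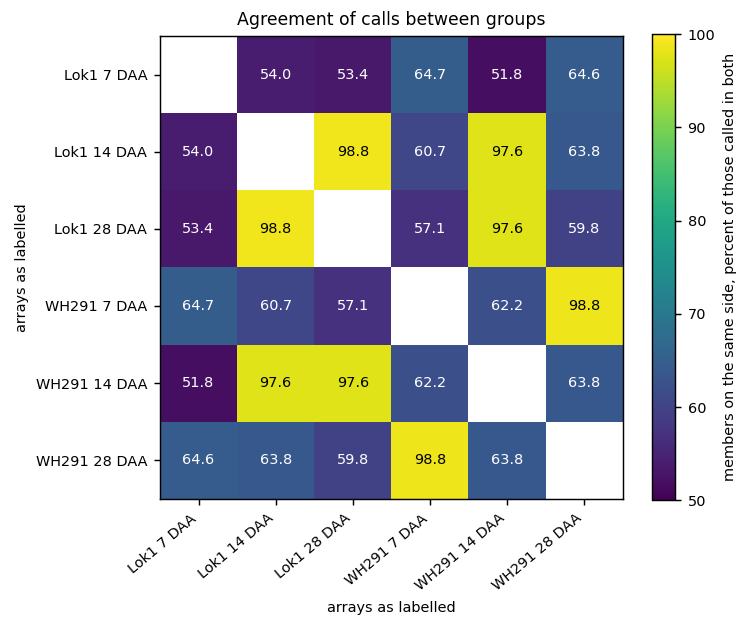
Percent of members on the same side of the midpoint between C306 and Sonalika, for each pair of the 6 groups of Lok1 and WH291 arrays as labelled, over the members called in both groups. The arrays labelled WH291 14 DAA shared the side of Lok1 14 DAA and Lok1 28 DAA in 97.6% of members each. Over both directions together, those labelled Lok1 7 DAA shared the side of no other group in more than 64.7%. Their highest share was 63.4% in members higher in C306 and 78.0% in those lower in C306.

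Markers of tissue and stage also differed between C306 and Sonalika at single stages. The median difference of 29 storage protein probe sets, which mark the endosperm, was 4.72 at 7 DAA, with all 29 at or above 3, but -0.03 at 14 DAA and -0.23 at 28 DAA. The study drew this list from these same arrays for a large difference between the good and poor varieties. That choice goes far to fix the difference at 7 DAA. The median of 10 embryo and desiccation probe sets was -0.06 at 7 DAA, -3.88 at 14 DAA, with 8 of the 10 at or below -3, and 0.24 at 28 DAA. Neither list differed at all 3 stages, and the medians of 18 histone probe sets (0.20, 0.28 and -0.26 at 7, 14 and 28 DAA) and 5 probe sets of the light reactions (-0.27, -0.68 and 0.01) stayed within 1. The 3 BioB hybridization controls differed by a median of 4.33 at 28 DAA, where the C306 arrays were at 1.21 against -3.08 in Sonalika, -3.21 in Lok1 and -3.31 in WH291, while 6 other hybridization controls differed by 0.76. At 7 and 14 DAA the BioB controls differed by -0.23 and 0.22. Their part in the differences of the members at 28 DAA was not tested.

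The 46 members higher in C306 had a median C306 minus Sonalika difference of 4.33 at 7 DAA, 4.54 at 14 DAA and 3.97 at 28 DAA, and single members ranged up to 8.34, 9.88 and 6.38 at these stages. The 49 members lower in C306 had medians of -4.78, -4.78 and -4.90, and reached -8.41, -9.48 and -8.46. Across all 61179 probe sets other than controls, the median difference was -0.01, 0.02 and 0.005 at 7, 14 and 28 DAA. At a single stage, 160, 109 and 105 probe sets reached 3 at 7, 14 and 28 DAA, and 174, 193 and 171 reached -3. The arrays of C306 and Sonalika did not overlap at any stage in any of the 95 members, which the rule goes far to fix, and in 93 of them the nearest arrays were more than 2 apart at every stage. The exceptions were Ta.20102.2.S1_at, with a gap of 0.26 at 28 DAA, where the Sonalika arrays gave 3.89, -0.68 and 2.99, and Ta.6828.1.S1_at, with a gap of 1.94 at 28 DAA.

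The range of a member's difference, from its smallest to its largest stage, had a median of 1.00, was under 1 in 47 members and over 2 in 13. Within C306 the stage means of a member spanned a median of 0.59 and within Sonalika 0.67, and the span was over 2 in 7 and 6 of the 95 members. In the groups as labelled, the span was 2.71 in Lok1 and 1.97 in WH291, and was over 2 in 54 and 47 members. The replicate arrays of the 2 varieties that the rule used were close to each other, with a median spread of 3 arrays of 0.41 in C306 and 0.41 in Sonalika, against 0.52 in Lok1 and 0.50 in WH291. The rule favours members whose C306 and Sonalika arrays agree, so these spans and spreads are not a like comparison of the varieties.

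**Figure D2:**
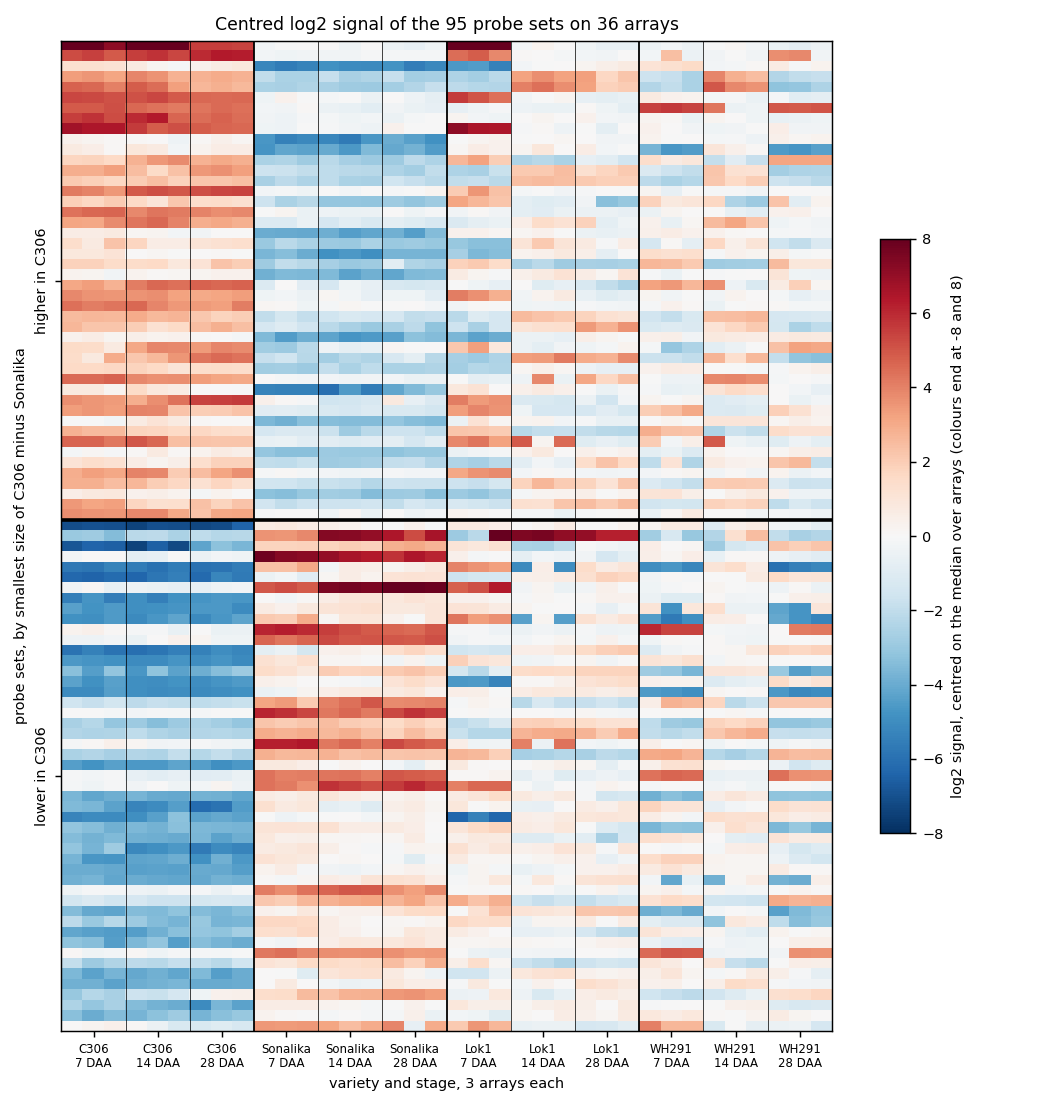
Centred log2 signal of each of the 95 members (rows, those higher in C306 above the black line and those lower below it) on the 36 arrays (columns, 3 for each variety and stage). In C306 and Sonalika, whose values chose the members, the stage means spanned medians of 0.59 and 0.67, and over 2 in 7 and 6 members. Lok1 and WH291 as labelled change side between groups of arrays in many members, but the rule makes this no like comparison of the varieties.

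Just inside the threshold were Ta.28759.1.A1_at, a hypothetical protein with differences of 5.03, 3.05 and 3.79 at 7, 14 and 28 DAA, and Ta.1752.1.A1_at with 3.63, 3.79 and 3.04, and among the members lower in C306 TaAffx.14477.1.S1_at with -3.71, -3.20 and -3.29 and Ta.20102.2.S1_at with -3.20, -3.40 and -3.23. Just outside were Ta.7061.2.S1_a_at with 4.49, 3.05 and 2.94, Ta.9698.2.A1_a_at with 3.46, 2.89 and 3.19, TaAffx.97072.1.S1_at with -2.91, -3.34 and -5.40 and Ta.30940.1.S1_at with -3.99, -3.60 and -2.91. Ta.9698.2.A1_a_at shares its sequence cluster with a member, Ta.9698.1.S1_at (5.13, 4.997 and 4.88).

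Among the members higher in C306, the largest difference at the stage where it was smallest belonged to Ta.24736.1.S1_at, whose sequence matches a hypothetical protein of Aegilops tauschii. Its signal was 8.86, 8.84 and 7.13 on the C306 arrays at 7 DAA, against -0.20, -0.02 and 0.03 on the Sonalika arrays. At 14 DAA it was 10.65, 10.38 and 8.37 in C306 and 0.06, -0.32 and 0.02 in Sonalika, and at 28 DAA 5.50, 5.52 and 5.43 in C306 and -0.48, -0.65 and -0.36 in Sonalika. Sonalika stayed near the median over all arrays while C306 was far above it, with differences of 8.34, 9.88 and 5.98. The arrays labelled Lok1 7 DAA were as high as C306, at 9.56, 10.34 and 8.58, and the other Lok1 arrays and all WH291 arrays lay between -0.71 and 0.26. By the smallest difference over the stages, next came the hypothetical protein Ta.11896.1.A1_s_at (5.47, 5.76 and 6.38), the unannotated Ta.6952.1.S1_a_at (6.60, 5.28 and 5.76) and the hypothetical proteins Ta.3527.1.S1_at (5.71, 5.73 and 5.23) and Ta.28744.1.S1_at (6.96, 6.98 and 4.98).

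Ta.23352.1.S1_at matches the putative serine/threonine-protein kinase CCR3, a receptor-like kinase related in Arabidopsis to CRINKLY4, which acts in epidermal development. On C306 arrays it was 4.14, 3.97 and 3.47 at 7 DAA, 4.90, 5.16 and 4.95 at 14 DAA and 5.17, 5.34 and 5.41 at 28 DAA. On Sonalika arrays it was -0.19, -0.17 and -0.34, then -0.05, -0.21 and 0.02, then -0.07, -0.06 and 0.24 at the same stages. The arrays of the varieties did not overlap at any stage, and the difference was 4.09, 5.08 and 5.27 at 7, 14 and 28 DAA. In Lok1, the arrays labelled 7 DAA were at 2.00, 3.53 and 2.33, on the C306 side, while those of Lok1 at 14 and 28 DAA and of WH291 at every stage were on the Sonalika side. Lok1 minus WH291 was 2.78 ± 0.24 at 7 DAA (mean ± SE, limma, adjusted p = 9.75e-10) and -0.03 ± 0.24 at 28 DAA (adjusted p = 0.972).

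TaAffx.128648.2.A1_at matches 2'-deoxymugineic-acid 2'-dioxygenase, which in barley hydroxylates the phytosiderophore deoxymugineic acid, one of the chelators with which grasses take up iron. In C306 it was 1.52, 1.50 and 0.75 at 7 DAA, 3.12, 3.94 and 3.87 at 14 DAA and 3.43, 3.88 and 3.79 at 28 DAA. In Sonalika it was -2.80, -2.90 and -2.14, then -0.42, -0.81 and -0.59, then 0.16, -0.05 and 0.05. Both varieties were lower at 7 DAA than later, and the difference was of like size at each stage (3.87, 4.25 and 3.65). At 28 DAA Lok1 was on the Sonalika side, with -0.33, -0.13 and 0.26, and WH291 on the C306 side, with 2.34, 3.22 and 3.10, and Lok1 minus WH291 was -2.95 ± 0.50 (limma, adjusted p = 0.000146). At 7 DAA Lok1 was the higher of the pair, with Lok1 at 2.14, 3.30 and 0.85 and WH291, which was split, at -0.13, -3.08 and -2.48 (3.99 ± 0.50, limma, adjusted p = 8.13e-07). Another probe set of the same sequence cluster, TaAffx.128648.1.S1_at, had C306 minus Sonalika differences of 1.59, -0.54 and -0.05.

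Ta.23366.2.S1_at matches Peroxidase 66, a class III peroxidase, the family of secreted plant enzymes that cross-link cell wall polymers and use hydrogen peroxide. In C306 it was 1.47, 0.78 and 2.98 at 7 DAA, 2.17, 2.60 and 3.52 at 14 DAA and 4.28, 4.54 and 4.37 at 28 DAA. In Sonalika it was -1.86, -1.58 and -2.20, then -2.69, -2.24 and -2.38, then -1.31, -0.78 and -2.21. The difference increased with the stage (3.62, 5.20 and 5.83). At 28 DAA Lok1 was on the C306 side but below C306, at 2.96, 2.78 and 3.76, and WH291 was on the Sonalika side, at -1.92, -3.17 and -3.37. Lok1 minus WH291 was 5.99 ± 0.45 at 28 DAA (limma, adjusted p = 1.25e-10), the largest such difference among the members higher in C306. The arrays labelled Lok1 7 DAA were at -2.63, -2.93 and -2.48, on the Sonalika side, and those labelled WH291 14 DAA at 2.69, 1.32 and 2.57, on the C306 side.

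The peroxidase cluster holds 5 other probe sets on the array. Ta.23366.2.S1_x_at, designed to the same sequence, differed in the same direction (2.84, 3.73 and 4.87). Ta.23366.1.S1_at differed the other way at 14 and 28 DAA (-0.29, -1.82 and -2.85), and so did Ta.23366.3.A1_at (0.44, -2.98 and -1.13). The probe sets of this cluster thus had differences of both signs.

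Ta.7430.1.S1_at matches GATA transcription factor 17, of the zinc finger family that binds GATA motifs and is known in plants from light and nitrogen responses. In C306 it was 3.75, 3.54 and 3.43 at 7 DAA, 2.93, 3.72 and 4.37 at 14 DAA and 5.41, 5.50 and 5.60 at 28 DAA. In Sonalika it was 0.43, 0.09 and -0.09, then -1.62, -1.49 and -1.26, then 0.78, -0.65 and -1.16. The difference was 3.43, 5.13 and 5.84, and the 3 Sonalika arrays at 28 DAA were more spread than the C306 arrays. As high as C306 were the arrays labelled Lok1 7 DAA, at 4.11, 3.38 and 3.65, against 0.22, -0.02 and 0.20 in WH291 (3.58 ± 0.35, limma, adjusted p = 1.13e-08). At 14 and 28 DAA, Lok1 and WH291 were both on the Sonalika side, and their difference at 28 DAA was -0.50 ± 0.35 (limma, adjusted p = 0.474).

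Among the members lower in C306, S-formylglutathione hydrolase had the largest difference at the stage where it was smallest. This enzyme completes the glutathione-dependent oxidation of formaldehyde to formate. Its probe set Ta.2434.3.A1_at was -7.08, -6.96 and -7.04 in C306 at 7 DAA, against 0.65, 0.76 and 0.59 in Sonalika. At 14 DAA it was -7.40, -7.06 and -7.08 in C306 and 0.38, 0.31 and -0.0018 in Sonalika, and at 28 DAA -7.26, -7.16 and -6.44 in C306 and -0.01, 0.36 and -0.08 in Sonalika. The difference was -7.70, -7.41 and -7.04. Lok1 lay between -0.04 and 0.74 and WH291 between -1.01 and 0.67 over their 9 arrays each, so that C306 was the variety apart at every stage. Lok1 and WH291 did not pass the test against each other at any stage (at 28 DAA 0.52 ± 0.27, limma, adjusted p = 0.29). The 3 other probe sets of the cluster did not show the difference, with 0.40, 0.06 and 0.37 for Ta.2434.1.A1_at, 0.01, -0.21 and 0.23 for Ta.2434.1.A1_x_at and -0.09, 0.23 and 0.38 for Ta.2434.2.S1_at.

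Ta.24332.1.S1_at is annotated as hsp16.9A, a small cytosolic heat shock protein, a chaperone that holds unfolding proteins in solution. In C306 it was -2.99, -2.87 and -3.48 at 7 DAA, -2.16, -2.08 and -2.56 at 14 DAA and -2.02, -2.28 and -2.24 at 28 DAA. In Sonalika it was 3.61, 3.55 and 3.82, then 7.32, 7.25 and 7.06, then 6.49, 5.22 and 6.60. The difference of -6.78, -9.48 and -8.29 was the widest at 14 DAA among the members lower in C306. Lok1 was on the Sonalika side at 14 DAA (7.45, 7.60 and 7.11) and 28 DAA (7.01, 6.24 and 6.24), and WH291 on the C306 side at 7 DAA (-2.79, -1.30 and -3.01), 14 DAA (-2.33, 1.30 and 2.44) and 28 DAA (-1.95, -2.57 and -2.35), although the WH291 arrays at 14 DAA lay far apart. The arrays labelled Lok1 7 DAA were split (-2.90, -2.18 and 8.35), the third lying far above the others, and this was the widest spread of 3 replicate arrays among the members. This probe set did not pass the filter on low values, which used values relative to each probe set's median and so does not mark weak signal. In a fit without that filter, Lok1 minus WH291 was 8.79 ± 1.52 at 28 DAA (limma, adjusted p = 0.000184) and 6.91 ± 1.52 at 14 DAA (limma, adjusted p = 0.00566).

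Ta.5129.2.A1_a_at matches heat stress transcription factor A-9, which in Arabidopsis and sunflower is expressed in maturing seeds and activates genes of small heat shock proteins. In C306 it was -2.55, -2.37 and -2.63 at 7 DAA, -2.32, -2.48 and -1.91 at 14 DAA and -2.26, -1.88 and -2.33 at 28 DAA. In Sonalika it was 2.85, 2.62 and 2.68, then 2.76, 2.35 and 2.52, then 2.20, 2.27 and 2.23. The levels were similar over the stages in either variety, and the difference was -5.23, -4.78 and -4.39. At 28 DAA Lok1 was at -2.57, -2.06 and -2.31, like C306, and WH291 at 2.74, 2.499 and 2.53, like Sonalika. Lok1 minus WH291 was -4.91 ± 0.18 (limma, adjusted p = 2.13e-17), the largest negative difference at 28 DAA of the members that passed the filter on low values. The arrays labelled Lok1 7 DAA gave 2.69, 2.58 and 1.88 and those labelled WH291 14 DAA -2.29, -2.63 and -2.27, each on the side opposite to the other stages of its variety. The heat stress factor and hsp16.9A thus had opposite calls for Lok1 at 14 and 28 DAA and for WH291 at 7 and 28 DAA, although both were lower in C306 than in Sonalika.

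Ta.6984.1.A1_at matches chromodomain-helicase-DNA-binding protein 4, a chromatin remodeller known from animals, and Ta.4957.1.S1_at the peroxisomal acyl-coenzyme A oxidase 1, which opens the beta-oxidation of fatty acids. For the chromatin remodeller, C306 lay between -0.57 and 0.38 and Sonalika between 4.51 and 6.26 over the 9 arrays of each, and the difference was -5.89, -5.46 and -5.08. For the oxidase, C306 lay between -0.33 and 0.09 and Sonalika between 3.40 and 4.43, and the difference was -4.32, -3.82 and -3.61. The other probe sets of these clusters did not show the difference. Those of the remodeller were slightly higher in C306, with 0.45, 0.83 and 0.62 for Ta.6984.1.A1_s_at and 0.94, 0.86 and 0.46 for Ta.6984.3.S1_a_at. For the oxidase, Ta.4957.2.A1_at had -0.21, 0.32 and -0.41. Lok1 was on the C306 side at every stage in both members, between -0.44 and -0.07 for the remodeller and between -0.58 and 0.06 for the oxidase. WH291 was split at 28 DAA in both by the same array, with 0.02, 4.15 and 4.22 for the remodeller and -0.31, 3.63 and 3.60 for the oxidase. At 7 DAA all 3 WH291 arrays were on the Sonalika side, at 6.03, 5.41 and 5.41 for the remodeller and 4.51, 4.99 and 4.88 for the oxidase. Lok1 minus WH291 at 28 DAA was -3.07 ± 0.56 for the remodeller (limma, adjusted p = 0.000331) and -2.34 ± 0.52 for the oxidase (limma, adjusted p = 0.00324). For the oxidase the call was lost without WH291 28 DAA replicate 2 (-1.68) or replicate 3 (-1.70).

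Ta.14507.2.S1_at matches the NUBP1-like factor of cytosolic iron-sulphur cluster assembly, a scaffold on which clusters are built. In C306 it was -4.26, -4.82 and -4.32 at 7 DAA, -4.89, -4.94 and -4.76 at 14 DAA and -4.99, -4.74 and -4.50 at 28 DAA. In Sonalika it was 0.43, 0.31 and 0.03, then -0.03, -0.08 and -0.19, then 1.12, 1.47 and 1.10. The difference was -4.72, -4.76 and -5.97. As low as C306 were the arrays labelled Lok1 7 DAA, at -4.61, -4.53 and -5.26, and every other array of Lok1 and WH291 was on the Sonalika side, between -1.06 and 1.54. Lok1 minus WH291 was -5.09 ± 0.20 at 7 DAA (limma, adjusted p = 1.56e-17) and 1.03 ± 0.20 at 14 DAA (adjusted p = 0.00152), and at 28 DAA it was 0.13 ± 0.20 (limma, adjusted p = 0.799). The call at 14 DAA was lost with cyclic loess normalization (0.80). The other 3 probe sets of the cluster were lower in C306 by smaller amounts, of which Ta.14507.3.S1_a_at differed most at 28 DAA (-0.44, -1.47 and -1.55).

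Ta.27445.1.S1_at matches a chloroplastic FtsH-like protease, of the membrane proteases that degrade damaged proteins of photosystem complexes. In C306 it lay between -2.07 and -1.50, and in Sonalika it was 3.13, 3.41 and 2.07 at 7 DAA, 4.06, 4.42 and 4.95 at 14 DAA and 3.80, 3.87 and 3.96 at 28 DAA. The difference was -4.53, -6.45 and -5.78. At 28 DAA Lok1 was at -1.85, -1.50 and -1.89 and WH291 at 2.13, 2.18 and 2.13, and Lok1 minus WH291 was -3.89 ± 0.59 (limma, adjusted p = 2.67e-05). The Lok1 arrays at 28 DAA were at the level of C306, and the WH291 arrays were nearer to Sonalika but below it. WH291 was split at 7 DAA (0.52, 2.80 and 2.61) and, as labelled, at 14 DAA (1.69, -2.14 and -1.75). The arrays labelled Lok1 7 DAA lay between the levels of C306 and Sonalika, at -0.12, 0.30 and 0.12. Lok1 at 14 DAA was at -2.20, -1.27 and -1.85.

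**Figure D3:**
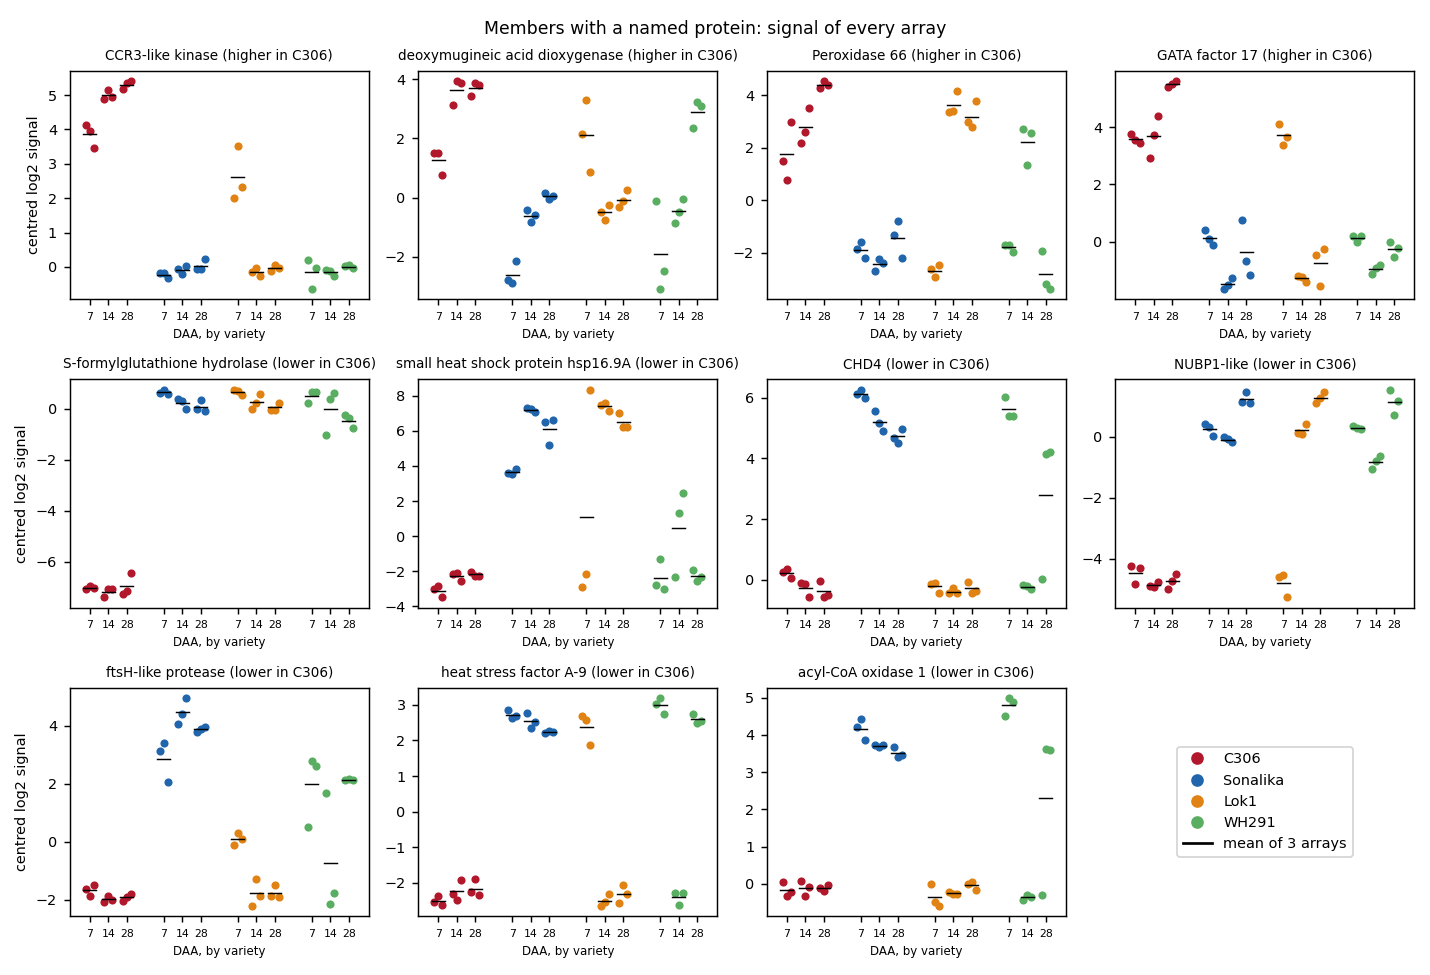
Centred log2 signal of every array for the 11 members with a putative function or a gene name, by variety and stage, with the mean of 3 arrays as a bar. C306 (red) and Sonalika (blue) do not overlap at any stage in any panel, while the arrays labelled Lok1 7 DAA and WH291 14 DAA often lie apart from the other arrays of their variety.

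At 28 DAA, where each variety had the side of another of its stages in 98.8% of members, 19 of the 95 members had Lok1 and WH291 both on the C306 side and 30 had both on the Sonalika side. In 17 members Lok1 was with C306 and WH291 with Sonalika, as the grouping by chapatti quality would have it, and in 16 Lok1 was with Sonalika and WH291 with C306. The remaining 13 members had a split call. Among the 46 members higher in C306, these counts were 10 with both on the C306 side, 12 with Lok1 alone, 5 with WH291 alone and 12 with neither. Among the 49 lower in C306, they were 9 with both, 5 with Lok1 alone, 11 with WH291 alone and 18 with neither. At 7 DAA, as labelled, 14 members followed the quality grouping and 16 its reverse, and at 14 DAA, as labelled, 0 and 2, with 36 members where both varieties were on the C306 side and 44 where both were on the Sonalika side.

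The signal of Lok1 and WH291 mostly lay near one of the levels of C306 and Sonalika rather than between them. On a scale from 0 at the Sonalika mean to 1 at the C306 mean of the same stage, 31 of the 570 mean positions of Lok1 and WH291 (5.44%) lay between 0.333 and 0.667, whereas 227 lay at or above 0.667 and 312 at or below 0.333. The position was intermediate in 4.35% of the values of members higher in C306 and in 6.46% of those lower in C306. Over the 6 groups of Lok1 and WH291 arrays, 10 members were on the C306 side in all, among them the hypothetical proteins Ta.24218.1.S1_at and Ta.14446.1.A1_at, and 19 were on the Sonalika side in all, among them S-formylglutathione hydrolase and the hypothetical proteins Ta.8883.2.S1_at and Ta.5278.1.S1_at. In these 29 members Sonalika alone or C306 alone stood apart from the other 3 varieties under every label.

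**Figure D4:**
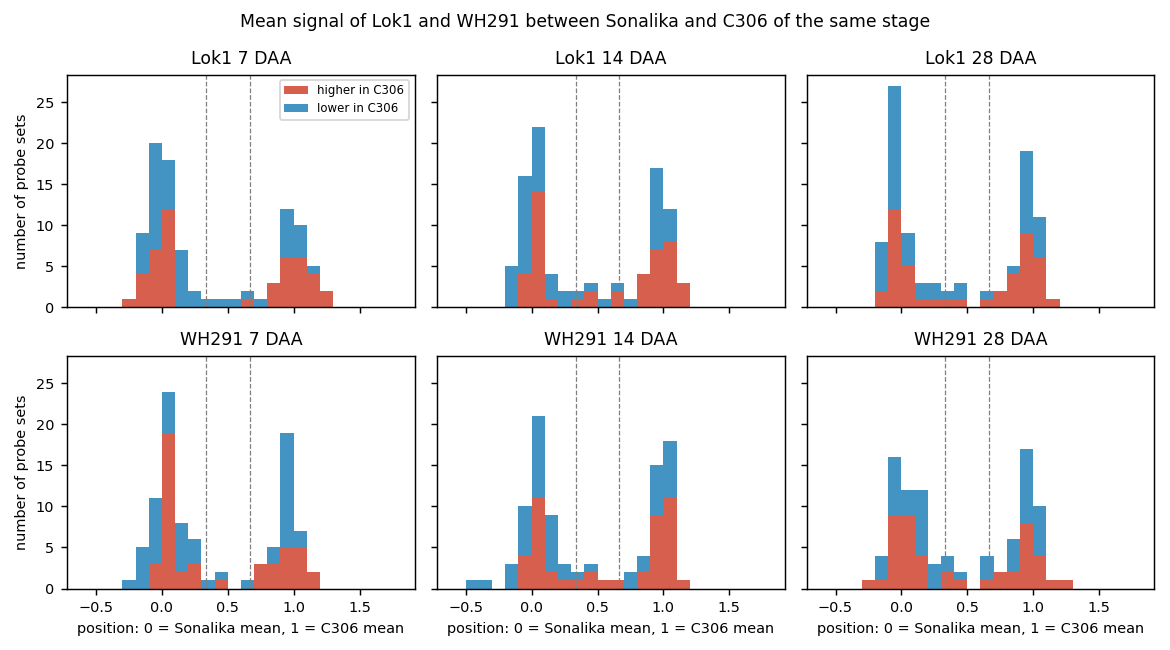
Number of members by the mean signal of Lok1 (upper row) and WH291 (lower row) at 7, 14 and 28 DAA, placed between the Sonalika mean (0) and the C306 mean (1) of the same stage, with members higher in C306 in red and those lower in C306 in blue. In each group the values gather near 0 and 1, and 5.44% of all 570 lie between the dashed lines at 0.333 and 0.667.

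Ta.14446.1.A1_at is a member in which Sonalika alone differed. Over its 9 arrays, C306 lay between -0.78 and 0.06. Sonalika was 7.75, 7.33 and 7.22 at 7 DAA, 7.06, 6.57 and 6.34 at 14 DAA and 5.81, 6.46 and 6.09 at 28 DAA, whereas Lok1 lay between -1.33 and 0.44 and WH291 between -0.90 and 0.55, with C306. Lok1 and WH291 did not pass the test against each other at any stage (at 28 DAA -0.14 ± 0.26, limma, adjusted p = 0.857). In Ta.8883.2.S1_at, C306 alone was low, between -6.41 and -5.23, against between -0.90 and 1.17 in Sonalika, and Lok1 lay between -1.68 and 1.83 and WH291 between -0.29 and 1.57.

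The test of Lok1 against WH291 at 28 DAA set arrays against each other that had no part in choosing the members. Of the 95 members, 87 passed the filter on low values, which leaves 4 of the members higher and 4 of those lower in C306 without a test. The filter used centred values, so it did not remove weak signal as such. A probe set failed if every combination of quality and stage held an array low for that probe set. All 12 and 5 members, higher and lower in C306, with Lok1 on the C306 side and WH291 on the Sonalika side at 28 DAA were tested. With the reverse calls, 4 of 5 and 9 of 11 were. At 28 DAA, 24 members were higher in Lok1 and 18 lower, 25.3% and 18.9% of the 95, against 3.75% and 4.33% of the 60048 probe sets tested (limma, adjusted p under 0.05). In a fit without the filter, in which all 95 members were tested, these counts were 27 and 21, against 3.76% and 4.45% of 61179 probe sets. The size of the called differences had a median of 4.27 in those higher in Lok1 and of -2.88 in those lower, and the median over all tested members was 0.06, against -0.02 over all probe sets. At 28 DAA, 19 members had every Lok1 array more than 2 above every WH291 array and 9 every Lok1 array more than 2 below, against 0.508% and 0.159% of the 61179 probe sets. Without the arrays labelled Lok1 7 DAA and WH291 14 DAA, 24 and 19 members were called, against 3.90% and 5.16% of the probe sets tested.

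Among the members that passed the filter, those with the largest positive Lok1 minus WH291 difference at 28 DAA were Ta.22270.1.A1_at (6.60 ± 0.75, limma, adjusted p = 2.33e-07), Peroxidase 66, Ta.28489.1.A1_at (5.89 ± 0.33, adjusted p = 2.45e-13) and Ta.22270.2.S1_at (5.70 ± 0.67, adjusted p = 4.73e-07). Both probe sets of this shared cluster, Ta.22270.1.A1_at and Ta.22270.2.S1_at, were lower in C306. For Ta.22270.1.A1_at, Lok1 was at 1.47, 0.68 and 1.00 and WH291 at -5.95, -5.46 and -5.23 at 28 DAA, and for Ta.22270.2.S1_at Lok1 was at 1.20, 0.63 and 1.12 and WH291 at -4.10, -4.74 and -5.29. In both, 1 of the 3 arrays labelled Lok1 14 DAA differed from the others, with -5.10, 0.54 and -4.95 for Ta.22270.1.A1_at and -4.33, 0.24 and -4.40 for Ta.22270.2.S1_at. The probe sets of a cluster thus split in the same array.

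Among the members that passed the filter, those with the largest negative difference at 28 DAA were the heat stress factor, TaAffx.80118.1.S1_at (-4.46 ± 0.17, limma, adjusted p = 2.58e-17), Ta.5243.2.S1_a_at (-4.43 ± 0.21, adjusted p = 3e-15) and Ta.5390.1.S1_at (-4.16 ± 0.29, adjusted p = 2.73e-11). TaAffx.80118.1.S1_at and Ta.5243.2.S1_a_at are hypothetical proteins lower in C306, and Ta.5390.1.S1_at is unannotated and higher in C306. For TaAffx.80118.1.S1_at, Lok1 was at -0.63, -0.39 and -0.63, against 4.43, 3.67 and 3.62 in WH291. For Ta.5390.1.S1_at, Lok1 was at -0.66, -0.82 and -1.53, against 3.14, 3.18 and 3.15 in WH291 and 2.80, 3.00 and 2.84 in C306, so that WH291 was at the level of C306. Of the 8 members that did not pass the filter, 2 lay beyond all of these in a fit without it. They were hsp16.9A and Ta.9698.1.S1_at, which was higher in C306 and was singled out after its value was seen. In Ta.9698.1.S1_at, Lok1 minus WH291 was -5.30 ± 0.62 (limma, adjusted p = 3.6e-07).

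Several hypothetical proteins higher in C306 shared the pattern of Peroxidase 66, with Lok1 on the C306 side and WH291 on the Sonalika side at 28 DAA. Ta.3527.1.S1_at was 3.27, 1.65 and 2.23 in Lok1 and -2.32, -1.94 and -1.83 in WH291 (4.41 ± 0.36, limma, adjusted p = 4.24e-10). Ta.28744.1.S1_at was 3.24, 1.87 and 2.01 in Lok1 and -3.19, -3.11 and -2.47 in WH291 (5.30 ± 0.36, adjusted p = 1.02e-11). Ta.21106.1.A1_at was 2.07, 1.92 and 1.93 in Lok1 and -1.68, -1.85 and -2.16 in WH291 (3.87 ± 0.18, adjusted p = 2.75e-15). The groups did not overlap in any of these, and Ta.14050.1.S1_at, Ta.25839.1.A1_a_at and Ta.28759.1.A1_at followed with differences of 5.23 ± 0.31, 4.66 ± 0.31 and 3.97 ± 0.23.

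At the other stages the comparison of Lok1 with WH291 rests on the arrays whose calls departed from the rest of their variety. At 7 DAA, 32 members were higher in Lok1 and 20 lower, 33.7% and 21.1% of the 95, against 11.1% and 13.8% of the probe sets tested. The median over the tested members was -0.02, against -0.0039 over all probe sets. At this stage the median of the storage protein list, chosen on these arrays for a difference between good and poor varieties, was -0.37 in Lok1 and -8.34 in WH291. At 14 DAA, 2 members were higher in Lok1 and 6 lower, 2.11% and 6.32% of the 95, against 3.22% and 2.65% of the probe sets tested, and at an unadjusted p under 0.05 21 of the 87 tested members differed, against 19.0% of the probe sets tested. The members higher in Lok1 were the NUBP1-like factor and TaAffx.58902.1.S1_x_at, named after its value was seen (2.79 ± 0.63, limma, adjusted p = 0.00676). The median over the tested members was 0.05, against -0.03 over all probe sets, and the median of the embryo and desiccation list was 0.76 in Lok1 and -3.69 in WH291. At 14 DAA, 1 member, hsp16.9A, had every Lok1 array more than 2 above every WH291 array and 0 had every Lok1 array more than 2 below, against 0.177% and 0.00981% of probe sets. At 7 DAA these counts were 16 and 12, against 0.619% and 0.365%. Of the 42 members called at 28 DAA, 17 were called in the same direction and 7 in the other direction at 7 DAA, and 0 and 4 at 14 DAA.

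**Figure D5:**
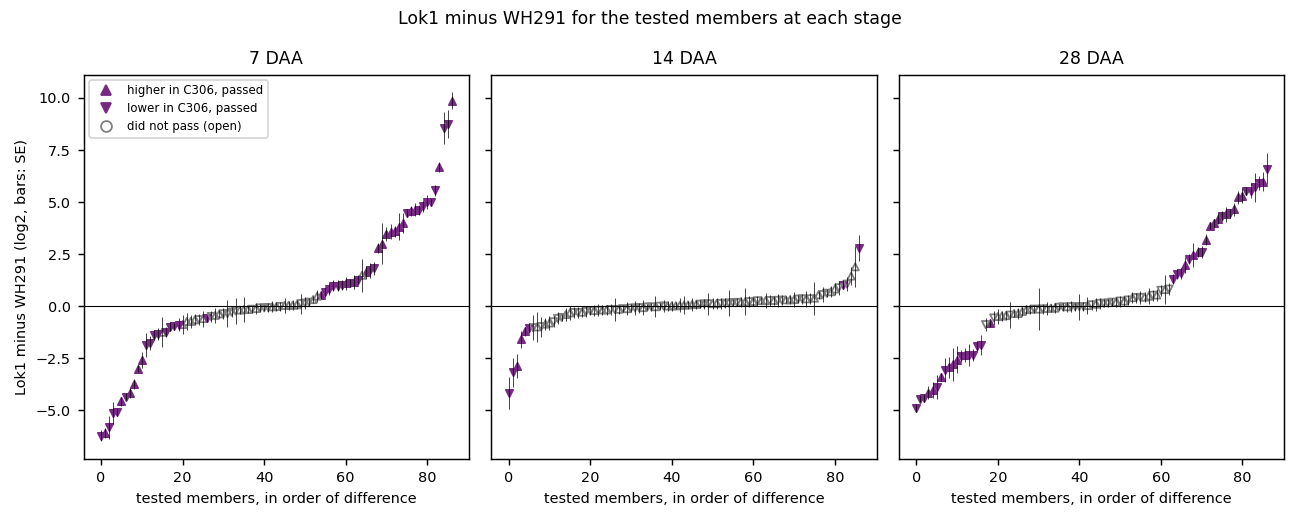
Lok1 minus WH291 (log2, bars show the SE) of the 87 tested members at 7, 14 and 28 DAA, each panel in order of the difference, with members past the test filled. At 28 DAA 24 members were higher and 18 lower in Lok1, and at 14 DAA, as labelled, 2 and 6.

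The difference between Lok1 and WH291 was not the same at all stages, as tested directly. From 14 to 28 DAA it changed in 41 of the 95 members (43.2%), against 7.75% of the probe sets tested, and from 7 to 28 DAA in 59 members (62.1%), against 21.0%. Within Lok1, 55 members (57.9%) changed between 7 and 14 DAA, against 19.9% of all probe sets, and 65 (68.4%) between 7 and 28 DAA, against 33.5%. Both counts rest on the arrays labelled Lok1 7 DAA. Between 14 and 28 DAA, 29 members (30.5%) changed in Lok1, against 27.0% of all probe sets, which is near the background. Within WH291, 57 members (60.0%) changed between 7 and 14 DAA, against 28.6%, and 48 (50.5%) between 14 and 28 DAA, against 27.0%, and both counts rest on the arrays labelled WH291 14 DAA. Between 7 and 28 DAA, 35 members (36.8%) changed in WH291, against 37.0% of all probe sets, which is close to the background in this fit. With cyclic loess normalization this count was 61, and the share of all probe sets was not taken for that setting. The shares of members are of all 95, of which 87 were tested, whereas the shares of probe sets are of those tested. In a fit without the arrays labelled Lok1 7 DAA and WH291 14 DAA, an alternative chosen after seeing the data, 31 members changed in Lok1 between 14 and 28 DAA, against 28.5% of the probe sets tested, and 34 in WH291 between 7 and 28 DAA, against 38.1%.

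Replicate arrays of Lok1 and WH291 did not always lie on one side. Of the 570 calls, 38 (6.67%), in 27 members, were split, and in 27 of these the odd array was more than 2 from the nearest of the other arrays. All 9 splits at WH291 14 DAA came from replicate 1, all 5 at Lok1 14 DAA from replicate 2 and all 3 at Lok1 7 DAA from replicate 3. At WH291 28 DAA, replicate 3 was the odd array in 5 members, replicate 1 in 3 and replicate 2 in 2. Ta.11896.1.A1_s_at is one example, with -0.23, -0.30 and 0.04 in Lok1 at 28 DAA against 3.69, 3.87 and -0.30 in WH291. Its Lok1 minus WH291 difference of -2.58 ± 0.64 (limma, adjusted p = 0.00949) did not pass the test without WH291 28 DAA replicate 1 (-1.95) or replicate 2 (-1.86). The call was also lost with cyclic loess normalization (-2.74). In C306 no member had 3 arrays of a stage spread by more than 3, and in Sonalika 1 of the 285 sets of 3 arrays was, against 7 in Lok1 and 19 in WH291. The rule favours members whose C306 and Sonalika replicates agree, so these counts do not show that the arrays of Lok1 and WH291 were noisier.

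The 95 members came from 88 clusters, and 7 clusters held 2 members each, which are not independent of each other. Of 68 pairs of a member with another probe set of its cluster that was no member, the other probe set differed by at least 1 in the same direction at all stages in 7, stayed within 1 at all stages in 45 and differed by at least 1 in the other direction at all stages in 0. Ta.7509.3.S1_at, a hypothetical protein lower in C306 by -8.41, -8.90 and -6.58, had Ta.7509.1.S1_at beside it with 0.12, -0.26 and -0.23. In Ta.7509.3.S1_at both varieties were intermediate at 14 DAA, with Lok1 at -2.51, -2.57 and -2.05 and WH291 at -2.84, -1.42 and -1.07 between C306 (-7.39, -6.56 and -7.22) and Sonalika (1.75, 1.98 and 1.81). Whether the other probe sets read the same gene copy was not tested. Probe sets with IDs of the TaAffx type made up 17.9% of the members and 48.5% of all probe sets, and those of the _x_at type, which can match several transcripts, 8.42% and 11.1%. Antisense-type IDs (.A1) made up 28.4% of the members and 17.4% of all probe sets, and which strand they read was not tested.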

How the data were processed

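Total RNA of developing seeds of 4 varieties at 3 stages was hybridized to 36 Affymetrix Wheat Genome Arrays, 3 biological replicates for each of 12 groups. The deposited values are log2 signals that the authors made by RMA (background correction, quantile normalization and summary of the probes of a probe set), centred on the median of each probe set over all arrays, so that absolute levels and the signal over background are lost and the number of arrays limits the precision. Groups followed the labels. The mean of 3 arrays was taken for each variety and stage, and the members were those with a C306 minus Sonalika difference of at least 3 or at most -3 at every stage. Lok1 and WH291 were compared in limma 3.58.1 (R 4.3.3) with 12 groups and no covariates, with Benjamini-Hochberg adjustment over 60048 probe sets and an adjusted p under 0.05. A probe set was tested if, in any of the 6 combinations of quality and stage, none of the 6 arrays fell below its own 20th percentile. These percentiles were of centred values, so the filter did not select by absolute signal. The p-values rest on the spread between field replicates, pooled over the 12 groups and drawn toward that of other probe sets. They do not follow the spread of the 2 groups compared alone. The fit was tested on simulated data. Other steps used Python 3.11.15, pandas 2.3.3 and matplotlib 3.10.9.

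The members and lists were chosen with earlier results of these data known. Members were named if they had a putative function or gene name, were the 5 with the largest smallest difference in a direction, the nearest to the threshold on either side, the 4 with the largest called Lok1 minus WH291 difference at 28 DAA in a direction, up to 5 further hypothetical proteins in a direction or up to 3 in a direction with the largest changes of that difference between stages. Functions of probe sets were read from the annotation of the study and the array's annotation. Alternatives were another threshold, median for mean, quantile and loess normalization, no filter, only 18 arrays, array weights, no moderation, the replicate number as a block and leaving out single arrays. A control probe set was not a candidate, and probe sequences were not used here.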

Additional observations from a re-analysis of the deposited data

Results flagged for a closer look

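The difference between Lok1 and WH291 differed between stages in 30 of the named members, by the limma test of the difference of differences (adjusted p under 0.05), which gave 45 values, and 15 members had one at both pairs of stages. Some of these members were named for this difference or its change, so the number is a description. Of all 95 members, 41 changed against 14 DAA and 59 against 7 DAA, where 7.75% and 21.0% of the probe sets tested did. The values are the Lok1 minus WH291 difference at 28 DAA less that at the earlier stage, in log2. Those against 14 DAA rest on the arrays labelled WH291 14 DAA and those against 7 DAA on the arrays labelled Lok1 7 DAA, and whether the labels of these arrays account for the values was not tested. Against 14 DAA, Lok1 minus WH291 was more positive at 28 DAA by 10.8 for Ta.22270.1.A1_at, 8.89 for Ta.22270.2.S1_at, 5.63 for Ta.14050.1.S1_at, 5.37 for Ta.28744.1.S1_at and 4.84 for Ta.28489.1.A1_at. Smaller changes of that sign were 4.79 for Ta.25839.1.A1_a_at, 4.54 for Ta.23366.2.S1_at, 4.15 for Ta.28759.1.A1_at, 4.1 for Ta.3527.1.S1_at and 3.33 for Ta.21106.1.A1_at. Against 14 DAA, Lok1 minus WH291 was more negative at 28 DAA by -4.81 for Ta.5129.2.A1_a_at, -4.39 for Ta.5243.2.S1_a_at, -4.33 for TaAffx.80118.1.S1_at, -3.29 for Ta.5390.1.S1_at and -2.92 for TaAffx.128648.2.A1_at. Smaller changes of that sign were -2.91 for Ta.6984.1.A1_at, -2.86 for Ta.27445.1.S1_at, -2.45 for Ta.4957.1.S1_at, -1.74 for Ta.7509.3.S1_at and -0.9 for Ta.14507.2.S1_at. Against 7 DAA, Lok1 minus WH291 was more positive at 28 DAA by 6.87 for Ta.23366.2.S1_at, 6.3 for Ta.6952.1.S1_a_at, 5.96 for Ta.14050.1.S1_at, 5.27 for Ta.28744.1.S1_at and 5.22 for Ta.14507.2.S1_at. Smaller changes of that sign were 4.86 for Ta.3527.1.S1_at, 3.99 for Ta.28759.1.A1_at, 3.56 for Ta.21106.1.A1_at, 2.8 for Ta.4957.1.S1_at and 2.75 for Ta.6984.1.A1_at. With cyclic loess normalization the change became 1.41 for Ta.4957.1.S1_at and 0.29 for Ta.6984.1.A1_at, and neither passed the test. The smallest of them were 2.16 for Ta.5278.1.S1_at, 1.81 for Ta.8883.2.S1_at and 1.38 for TaAffx.14477.1.S1_at. Against 7 DAA, Lok1 minus WH291 was more negative at 28 DAA by -9.85 for Ta.24736.1.S1_at, -6.95 for Ta.7158.1.S1_at, -6.94 for TaAffx.128648.2.A1_at, -6.39 for Ta.11896.1.A1_s_at and -5.77 for Ta.5390.1.S1_at. Smaller changes of that sign were -5.7 for Ta.5243.2.S1_a_at, -4.66 for Ta.19222.1.S1_at, -4.31 for Ta.5129.2.A1_a_at, -4.08 for Ta.7430.1.S1_at and -3.14 for Ta.7509.3.S1_at. The smallest of them were -3.07 for Ta.22270.2.S1_at and -2.81 for Ta.23352.1.S1_at.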

How the results depend on the processing

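The members and most counts depended little on the settings tried, most of which left out a single array. Of the counts under alternatives, 627 lay within 1.5 times the main count and 17 did not. Of these 17, 8 came from leaving out a single array, and the rest from another normalization, array weights or only 18 arrays. The count of members higher in Lok1 than in WH291 at 14 DAA, which was 2, became 1 with only the 18 arrays of Lok1 and WH291, 6 with quantile normalization, 0 with cyclic loess normalization and 9 with array quality weights, and lay between 1 and 6 when single arrays were left out. The count of members lower in Lok1 at 14 DAA, which was 6, became 3 with the 18 arrays, 15 with quantile normalization and 10 with array weights. With cyclic loess, 37 members in place of 20 were lower in Lok1 at 7 DAA, and 61 in place of 35 changed in WH291 between 7 and 28 DAA. Also with cyclic loess, 3 values changed sign. The change of Lok1 minus WH291 from 7 to 28 DAA became 0.24 for Ta.22270.2.S1_at and 0.017 for Ta.7509.3.S1_at, and the difference at 7 DAA became -2.13 for Ta.7509.3.S1_at. The cause was not tested. Leaving out single arrays gave 24 to 27 members higher and 15 to 19 lower in Lok1 at 28 DAA. Of 92 results of 30 named members, 10 kept their sign but missed the test under at least 1 alternative, and the 3 that changed sign are not among these. Cyclic loess ended the calls of the changes of Ta.6984.1.A1_at (0.29) and Ta.4957.1.S1_at (1.41) from 7 to 28 DAA, of the changes from 14 to 28 DAA of these members (-2.98 and -2.46, in that order), Ta.7509.3.S1_at (-1.39) and Ta.14507.2.S1_at (-0.49), and of Ta.14507.2.S1_at at 14 DAA. Also lost with cyclic loess were the calls of Lok1 minus WH291 for Ta.11896.1.A1_s_at at 28 DAA (-2.74) and Ta.5129.2.A1_a_at at 7 DAA (-0.46). Deviations of same-numbered replicates had correlations between -0.547 and 0.531 over 198 pairs, with a median of 0.0028. Replicates with different numbers were not compared, so whether the numbers pair the samples was not tested. With the replicate number as a block, 24 members were higher and 19 lower in Lok1 at 28 DAA, 42 changed between 14 and 28 DAA, and 1 result of the named members was lost, the change of Ta.14507.2.S1_at from 14 to 28 DAA (-0.9). The settings tried on the counts of members whose Lok1 minus WH291 difference changed between stages were chosen after seeing the data.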
